A study of Mus musculus with 2 samples.

Results

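The nuclear genes for the 5 enzyme complexes of oxidative phosphorylation were described in single cells of the mouse aorta. Members were all genes of both libraries whose symbol starts with Ndufa, Ndufb, Ndufc, Ndufs, Ndufv, Sdha, Sdhb, Sdhc, Sdhd, Uqcr, Cox4 to Cox8 or Atp5, leaving out assembly factors named Ndufaf, pseudogenes and genes of the mitochondrial genome. The rule took 87 of the 18920 genes in the files, with 38 in complex I, 4 in complex II, 8 in complex III, 17 in complex IV and 16 in complex V. The prefix Sdha also caught the 4 assembly factors Sdhaf1, Sdhaf2, Sdhaf3 and Sdhaf4, which are kept apart from the subunits below. The rule also counted Ndufa4 under complex I, although the field now places its protein in complex IV. The rule uses gene symbols and no measured value.

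Oxidative phosphorylation makes ATP in the inner mitochondrial membrane. Complex I (NADH dehydrogenase) and complex II (succinate dehydrogenase, also a citric acid cycle enzyme) pass electrons to ubiquinone, complex III (the cytochrome bc1 complex) passes them to cytochrome c, and complex IV (cytochrome c oxidase) passes them to oxygen. The protons pumped on the way drive complex V, the ATP synthase. Most subunits are made from nuclear genes and imported, while a few core subunits of complexes I, III, IV and V are made inside the mitochondrion. Several complex IV subunits come in pairs, 1 broadly expressed and 1 found in heart and skeletal muscle, lung or testis. In the arterial wall, contractile smooth muscle cells (SMCs) can lose contractile proteins and gain matrix genes, a state called modulated.

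Both libraries came from Fbn1C1041G/+ mice, which carry a mutant fibrillin-1 allele and model Marfan syndrome, so neither group is a healthy control. Mice received GLPG0187, which the submitters describe as an integrin alpha-v inhibitor, or vehicle each day from 6 to 16 weeks of age, and the aortic root and ascending aorta were taken at 16 weeks. Aortas of males and females were pooled within each group, the cells were released with Liberase and elastase and sorted to exclude debris, and each pool gave 1 library of 10x Genomics 3′ tags. The sources used here do not give how many animals went into a pool. With 1 library per group there is no replicate error and no test, so every difference below is a difference between these libraries or between cells within them. Paired values are given with the GLPG0187 library first and the vehicle library second.

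The libraries held 4397 and 2961 cells with medians of 14942 and 14806 units per cell on a depth-corrected scale and medians of 3773 and 3788 genes detected. After removal of likely doublets 4349 and 2945 cells remained, and 5 barcode sequences occurred in both libraries. Cells were grouped by marker genes into contractile SMC-like (1602 and 697 cells), modulated SMC-like (77 and 138), fibroblast-like (1046 and 868), macrophage-like (340 and 179), endothelial-like (161 and 104), Schwann-like (25 and 43) and dendritic-like cells (17 and 10). A pair of clusters stayed unnamed because 7 of 10 fibroblast markers passed where 75% were required, and each is called by a leading gene: the Prss35 cluster (906 and 710 cells) and the Chad cluster (175 and 196).

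Promoter sequences show a feature that many members share and that the expression data did not use. RefSeq entries for 73 of the 87 members gave the 250 bases before and 50 bases after the start of transcription in GRCm38.p6. The ETS core CCGGAAG, bound by factors such as GABPA, was found on either strand in 19 member promoters (26.0%), against 9.93% of 27025 promoters of the same length. The YY1 core AAGATGGC was in 10 (13.7% against 3.19%) and the NRF1 core TGCGCATGC in 5 (6.85% against 1.72%). At least 1 of these motifs was in 32 promoters (43.8%, against 13.9%), and where an ETS core adjoins a YY1 core they can share the letters AAG. A match describes these letters only and is not evidence of binding. The Cox6b and Cox8 pairs, chosen after their matches were seen, are set side by side here because their expression is compared later. Each line holds 130 bases before and 20 after the start, 5′ to 3′ on the gene's own strand, with capitals for CTTCCGG, the ETS core read on the opposite strand. Cox6b1 and Cox6b2 lie on the minus strand at chr7:30626095-30626244 and chr7:4753075-4753224, and Cox8a and Cox8b on the minus strand at chr19:7217597-7217746 and chr7:140900427-140900576.
Cox6b1: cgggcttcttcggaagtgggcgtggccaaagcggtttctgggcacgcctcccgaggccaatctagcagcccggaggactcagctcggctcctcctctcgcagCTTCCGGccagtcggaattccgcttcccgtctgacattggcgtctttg
Cox6b2: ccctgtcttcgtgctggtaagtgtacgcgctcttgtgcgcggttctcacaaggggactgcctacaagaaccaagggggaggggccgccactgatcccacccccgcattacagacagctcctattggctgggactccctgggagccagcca
Cox8a: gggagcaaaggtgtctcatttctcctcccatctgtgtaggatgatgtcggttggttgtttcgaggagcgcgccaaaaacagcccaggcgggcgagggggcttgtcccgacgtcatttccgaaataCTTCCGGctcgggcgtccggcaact
Cox8b: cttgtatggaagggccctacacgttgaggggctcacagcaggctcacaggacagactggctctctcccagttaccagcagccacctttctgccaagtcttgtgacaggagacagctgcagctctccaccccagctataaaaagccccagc
The broad isoforms Cox6b1 and Cox8a each show 1 match in this stretch, and Cox8a holds a second just after it. The restricted isoforms Cox6b2 and Cox8b show none. The contrast is not general, since the broad isoforms Cox7a2 and Ndufa4 had 0 matches, as did Cox7a1, while Cox6a1 had 1.

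Levels varied widely within each complex. Among the complex I genes, the accessory subunit Ndufa13 averaged 6.26 units per cell over all cells and Ndufa4 averaged 5.67. The core subunit Ndufs1 averaged 0.469 and the Ndufa4 paralogue Ndufa4l2 averaged 0.643. The 4 complex II subunits averaged 1.48 (the iron-sulfur subunit Sdhb), 1.14 (Sdhc, a membrane anchor), 1.08 (Sdha, the flavoprotein) and 0.852 (Sdhd, the other anchor). In complex III the hinge protein Uqcrh averaged 6.86 and Uqcrb 5.22. The core protein Uqcrc1 averaged 1.05 and the Rieske iron-sulfur protein Uqcrfs1 0.978. These are 3′ tag values that were not scaled to transcript length, so they describe each gene and do not rank subunits. In complex IV Cox6c averaged 13.1 and Cox4i1 11.2, while Cox6a2 averaged 0.012 and Cox7b2 0.002. In complex V the F1 subunit Atp5e averaged 9.34 and the membrane subunit Atp5l 7.46, while the c-ring gene Atp5g3 averaged 2.49 and Atp5s, which RefSeq names Dmac2l, 0.091.

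Contractile SMC-like and endothelial-like cells gave the largest share of their values to oxidative phosphorylation genes among the 7 classes with more than 50 cells in each library. Members made up 2.22% and 2.24% of all values in contractile SMC-like cells and 2.11% and 2.10% in endothelial-like cells. The share was 1.86% and 1.90% in the Prss35 cluster, 1.73% and 1.74% in modulated SMC-like cells and 1.69% and 1.66% in macrophage-like cells. Fibroblast-like cells stood at 1.64% and 1.67%. It was 1.56% and 1.43% in the Chad cluster, the lowest of the 7 in both libraries. The 3 middle classes lay within 0.1 percentage points of each other in each library, and their order was not treated as a difference. Schwann-like cells, few in number, stood at 2.26% and 2.14%, and dendritic-like cells at 1.71% and 1.46%.

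**Figure D1:**
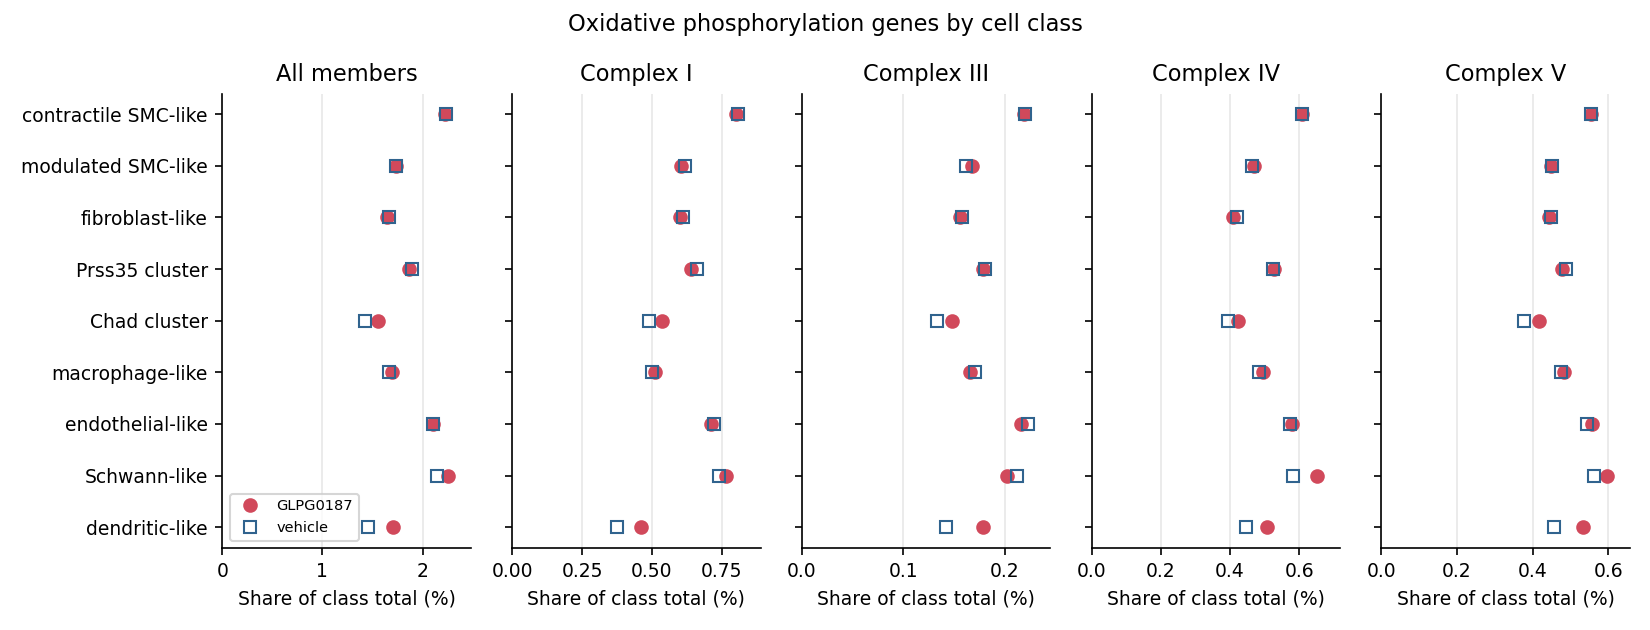
Share of all values in a class (x axis, percent) that came from the members and from those of complexes I, III, IV and V, by cell class (y axis), with filled circles for the GLPG0187 library and open squares for the vehicle library. Contractile SMC-like cells stand at 2.22% and 2.24% for all members, and the Chad cluster at 1.56% and 1.43%.

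The complexes did not follow the same order of classes. Complex I took 0.798% and 0.807% in contractile SMC-like cells but 0.510% and 0.499% in macrophage-like cells, below the 0.599% and 0.609% of fibroblast-like cells. Complex IV showed the opposite order of those 2 classes, with 0.495% and 0.483% in macrophage-like cells against 0.409% and 0.420% in fibroblast-like cells. Complex V likewise took 0.482% and 0.474% in macrophage-like cells against 0.444% and 0.448% in fibroblast-like cells. Complex III was nearly level between contractile SMC-like cells (0.219% and 0.220%) and endothelial-like cells (0.216% and 0.222%). Complex II, the smallest group, took 0.0364% and 0.0383% in contractile SMC-like cells, above the 0.0254% and 0.0266% of fibroblast-like cells.

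Single cells within a class spread widely around these values. In contractile SMC-like cells the median share per cell was 2.19% in both libraries, with quartiles of 1.94% to 2.48% and 1.92% to 2.48%. In fibroblast-like cells the medians were 1.57% and 1.62%. The share was related to the number of genes detected, with Spearman correlations across cells of -0.47 and -0.39 in contractile SMC-like and -0.51 and -0.60 in fibroblast-like cells, which share a library and its depth correction, and 0.03 and 0.01 in macrophage-like cells. Contractile SMC-like cells had medians of 4020.5 and 4150 genes and fibroblast-like cells 3393.5 and 3403.5. Relative to fibroblast-like cells the summed members of contractile SMC-like cells stood at log2 ratios of 0.44 and 0.42, and at 0.60 and 0.60 over cells from the middle range of genes detected.

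Scaling by median of ratios moved class ratios by up to 0.27 log2 units, since it sets the level of a typical gene rather than the class total. Under it, contractile SMC-like cells stayed above fibroblast-like cells at 0.32 and 0.30 and endothelial-like cells at 0.22 and 0.22 (0.36 and 0.33 by class total). Macrophage-like cells went from 0.05 and -0.01 to 0.27 and 0.27. That shift of 0.22 and 0.27 applies to every gene of the class, so its complex I share below that of fibroblast-like cells also depends on the scaling. The Prss35 cluster went from 0.18 and 0.18 to -0.00 and -0.02, so its position above fibroblast-like cells depends on the scaling.

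Seen gene by gene, contractile SMC-like cells held the highest value of the 7 classes in both libraries for 36 of the 76 members measured in all of them, and endothelial-like cells for 21. Over all 3404 genes measured in the 7 classes, the corresponding numbers were 504 and 769. The assembly factor Sdhaf4 was highest in the Prss35 cluster and Atp5f1, a stalk subunit of ATP synthase, in macrophage-like cells. The Chad cluster held the lowest value for 34 members (341 genes) and macrophage-like cells for 15 (1254 genes). Of the 15 members lowest in macrophage-like cells, 12 belonged to complex I, and the others were Cox6c, Atp5j and Sdhaf4. With 1254 of all 3404 genes lowest there, the part was larger among all genes than among the 76 members or among complex I genes alone. Fibroblast-like cells were lowest for Sdhd, Sdhaf2, Cox7c, Uqcrc1, Atp5g2 and Cox5a.

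Variation across the 7 classes was taken over the 76 members measured in all of them, which leaves out Ndufa4l2, Cox4i2 and other low-level isoforms. The median standard deviation of log2 levels was 0.289 for members, 0.365 for all genes, 0.189 for cytosolic ribosomal protein genes and 0.267 for genes of the mitochondrial genome. Of these 76, the member that varied most was Ndufa11, an accessory subunit in the membrane arm of complex I (0.55). Its mean was 4.88 and 5.39 units per cell in contractile SMC-like cells and 1.64 and 1.35 in macrophage-like cells. Cox5a, a structural subunit of complex IV, ran the other way (0.48), with 4.34 and 3.44 in macrophage-like cells, 3.17 and 3.41 in endothelial-like cells against 1.57 and 1.63 in fibroblast-like cells. Ndufa8 (0.41) was highest in endothelial-like cells at 2.63 and 2.73, against 1.24 and 1.22 in macrophage-like cells. Sdhc (0.41) reached 1.68 and 1.79 in contractile SMC-like cells against 0.808 and 0.828 in fibroblast-like cells, whereas its partner anchor Sdhd varied little (0.15). Ndufb8 was the fifth (0.40). The least variable were Atp5g1 (0.14), a c-ring gene, then Sdhd, Atp5l (0.15), Atp5o.1 (0.15) and Ndufb5 (0.15).

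Isoform pairs divided into a broad and a restricted gene. Cox4i1, Ndufa4, Cox6b1, Cox6a1, Cox8a and Cox7a2 were above 0 in 90% or more of the cells of every class, whereas no restricted partner passed 71%. Ndufa4l2 (chr10:127509274-127517154), a hypoxia-responsive paralogue of Ndufa4, was a gene of fibroblast-like cells here. It was above 0 in 60.3% and 63.4% of fibroblast-like cells with means of 2.02 and 2.15 units, and in 16.0% and 19.9% of the Chad cluster with means of 0.366 and 0.526. It was above 0 in 2.50% and 3.87% of contractile SMC-like, 2.48% and 4.81% of endothelial-like and 0.882% and 1.68% of macrophage-like cells. Both fibroblast clusters, led by Clec3b and by Il6, expressed it, at 2.15 and 2.29 and at 1.80 and 1.87.

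Cox4i2 (chr2:152753916-152765039), the oxygen-responsive alternative to Cox4i1, had another distribution. It was above 0 in 70.9% and 68.4% of the Chad cluster (means 2.89 and 2.62) and in 58.7% and 59.7% of the Prss35 cluster (1.87 and 1.90). Contractile SMC-like cells stood at 21.0% and 25.4%, fibroblast-like cells at 14.6% and 18.2% and macrophage-like cells at 2.94% and 1.12%. Cox4i1 itself was above 0 in nearly every cell and averaged 8.06 and 8.02 in the Chad cluster, 8.70 and 9.0 in fibroblast-like cells and 14.4 and 14.7 in contractile SMC-like cells. The Chad cluster thus held the highest Cox4i2 level and the lowest Cox4i1 level among the 7 classes in both libraries.

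Cox6b2 (chr7:4751792-4753094), known as the testis form of Cox6b, was above 0 in 29.9% and 19.6% of modulated SMC-like, 21.9% and 24.5% of fibroblast-like and 5.62% and 6.60% of contractile SMC-like cells. Macrophage-like cells stood at 6.47% and 14.0%. In Schwann-like cells it was above 0 in 36.0% of 25 and 16.3% of 43 cells, with means of 2.56 and 0.512 units. Cox8b, known from heart and brown fat, was above 0 in 11.4% and 5.61% of the Chad cluster, 6.95% and 9.01% of the Prss35 cluster, 6.41% and 6.91% of fibroblast-like cells, and 0.588% and 0.559% of macrophage-like cells. Macrophage-like cells, with medians of 3179.5 and 3060 genes detected against 3393.5 and 3403.5 in fibroblast-like cells, served as the background for Ndufa4l2, Cox4i2 and Cox8b. Their shares for Cox6b2 and Cox7a1 were not low, so no such background was had for these isoforms. Cox7a1, the muscle form of Cox7a, reached at most 7.35% in a class. Its values gave no pattern by class, with 7.35% and 6.70% in macrophage-like cells and 3.18% and 4.45% in contractile SMC-like cells.

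Cox6a2, the heart and skeletal muscle form of Cox6a, was above 0 in 11 and 20 cells, and 5 cells held 66.7% and 78.1% of its summed values. Of these cells, 2 and 5 also held Myh6, Tnni3 or Actc1, genes of heart muscle. Across all cells 1.91% and 3.97% held one of those genes. Cox7b2 was above 0 in 3 and 7 cells of the named and unnamed classes.

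**Figure D2:**
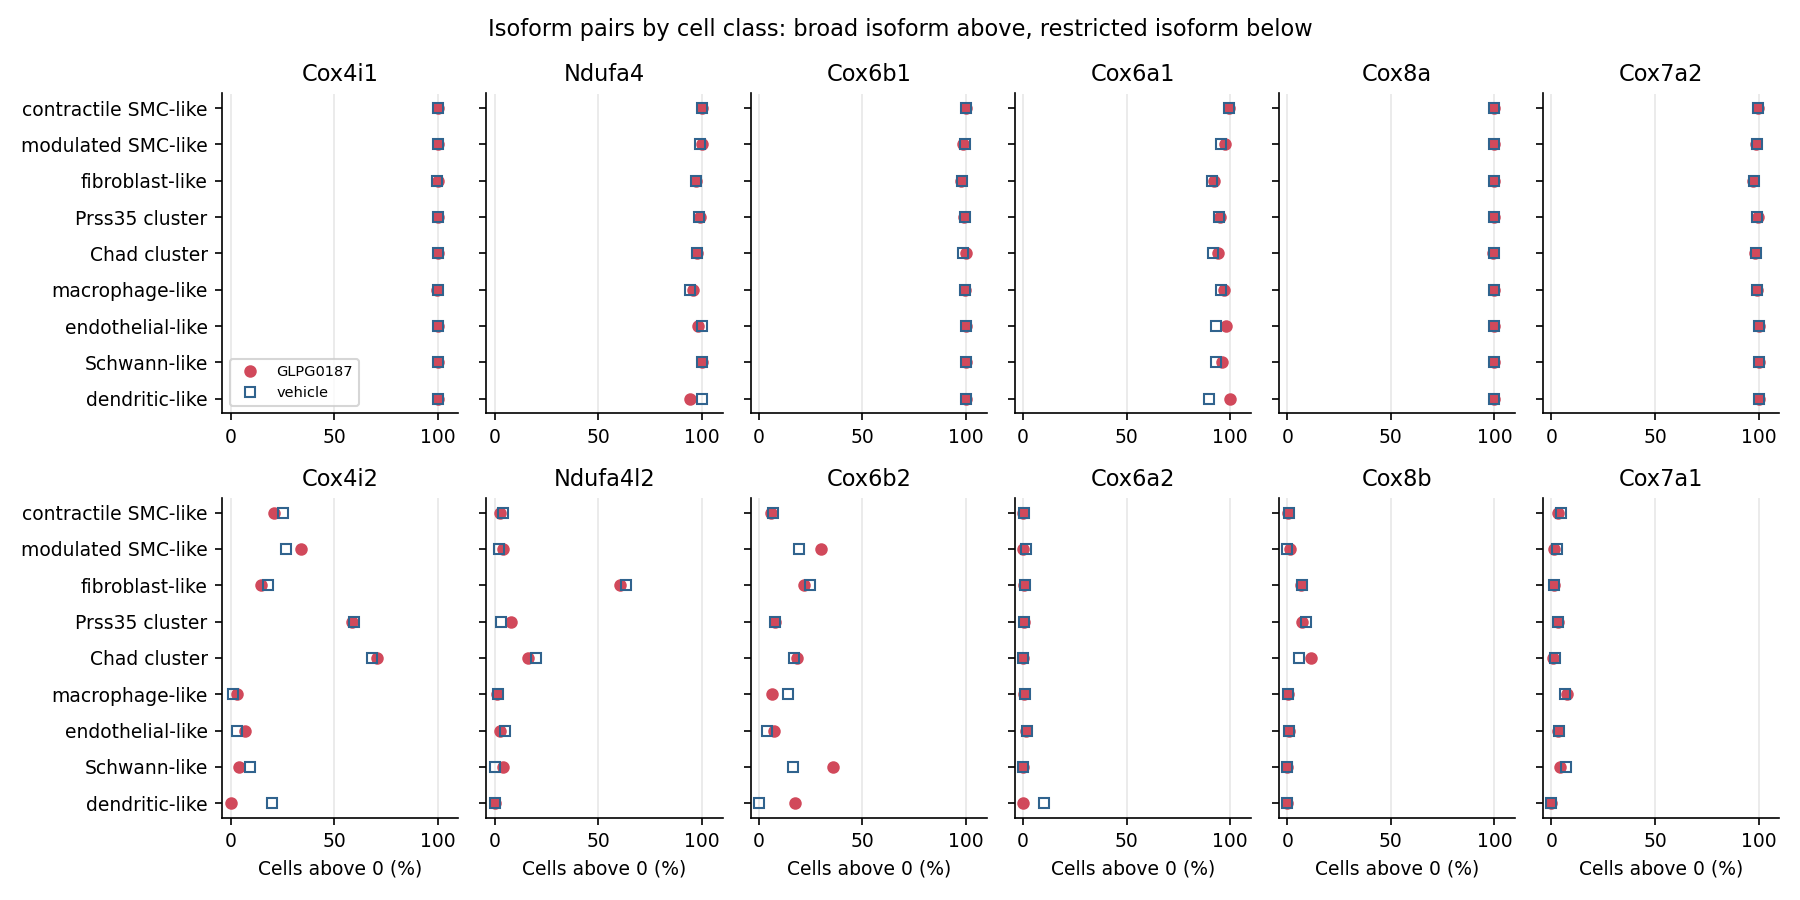
Percent of cells above 0 (x axis) by class (y axis) for 6 isoform pairs, broad isoform in the upper row and restricted isoform below it, with filled circles for the GLPG0187 library and open squares for the vehicle library. Ndufa4l2 peaks in fibroblast-like cells at 60.3% and 63.4%, and Cox4i2 in the Chad cluster at 70.9% and 68.4%.

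Genes with the most similar pattern were ranked by Pearson correlation of log levels over 14 clusters, averaged over both libraries. For Ndufa4l2 these were Cxcl12 (0.89), Steap4 (0.88), Gpx3 (0.88), Ms4a4d (0.86) and Adamts4 (0.86). For Cox4i2 they were Tle6 (0.89), Gm34030 (0.85), Ppp1r1b (0.84), Tbx20 (0.83) and Gm15867 (0.83). For Cox8b they were Ccl19 (0.88), Mrap (0.86), Cpxm2 (0.84), Mdk (0.83) and Papss2 (0.83). The clusters were built partly on Ndufa4l2, Cox4i2, Cox6b2, Cox8b and Cox6a2, which were among the 2000 variable genes, so these patterns are descriptions.

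Modulated SMC-like cells gave less of their values to oxidative phosphorylation genes than contractile SMC-like cells did. The share was 1.73% against 2.22% with GLPG0187 and 1.74% against 2.24% with vehicle, a 1.28-fold and 1.29-fold difference. Of 84 measured members, 37 were lower in modulated cells by a log2 ratio of at least 0.322 in both libraries (counted as lower below), where 13.5% of the 10760 measured genes were. Cox6b2 was the 1 member higher by that much in both, where 17.6% of all genes were. Below 0 in both libraries were 72 members, where 3851 of the 10760 measured genes were. The median log2 ratio was -0.33 and -0.36, against 0.03 and -0.01 over all genes. Cox6a2, Cox7b2 and Cox8b were too low to be measured here.

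The modulated cells formed 1 sub-cluster led by Cytl1, Ahsg and Fetub, with mean Myh11 levels of 9.56 and 8.51 units against 27.3 to 71.4 in the other SMC sub-clusters. Their median share per cell was 1.70% in both libraries, with quartiles of 1.51% to 1.90% and 1.48% to 1.98%. The medians of the other sub-clusters lay between 2.07% and 2.38%, above these upper quartiles. The number of genes detected was close, with medians of 4072 and 4112.5 in modulated and 4020.5 and 4150 in contractile SMC-like cells. Grouping the cells without the members and without the contractile and modulated marker genes gave the same counts of 37 lower and 1 higher. Scaling genes within each library before clustering instead put 423 and 298 cells in the modulated class. Then 0 members were lower (10.1% of all genes) and 2 higher (11.9%), with medians of -0.08 and -0.15 against -0.03 and -0.04 over all genes. That class joined 152 cells led by Fetub to 569 cells led by Lum and Dcn, with Cpxm2 and Tnnt2 among their leading genes. In the main grouping the Cpxm2 and Tnnt2 sub-cluster counted as contractile, so different cells were compared. With doublets kept, 13 members were lower and the GLPG0187 median was -0.21. There a 64-cell sub-cluster led by Ifit3, Ifit3b and Ifit1, with a mean Myh11 of 34.8, also passed the modulated rule. The share of all genes lower under that setting is not given here, so the 13 has no background beside it. The part of these changes of cells in the counts was not tested.

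**Figure D3:**
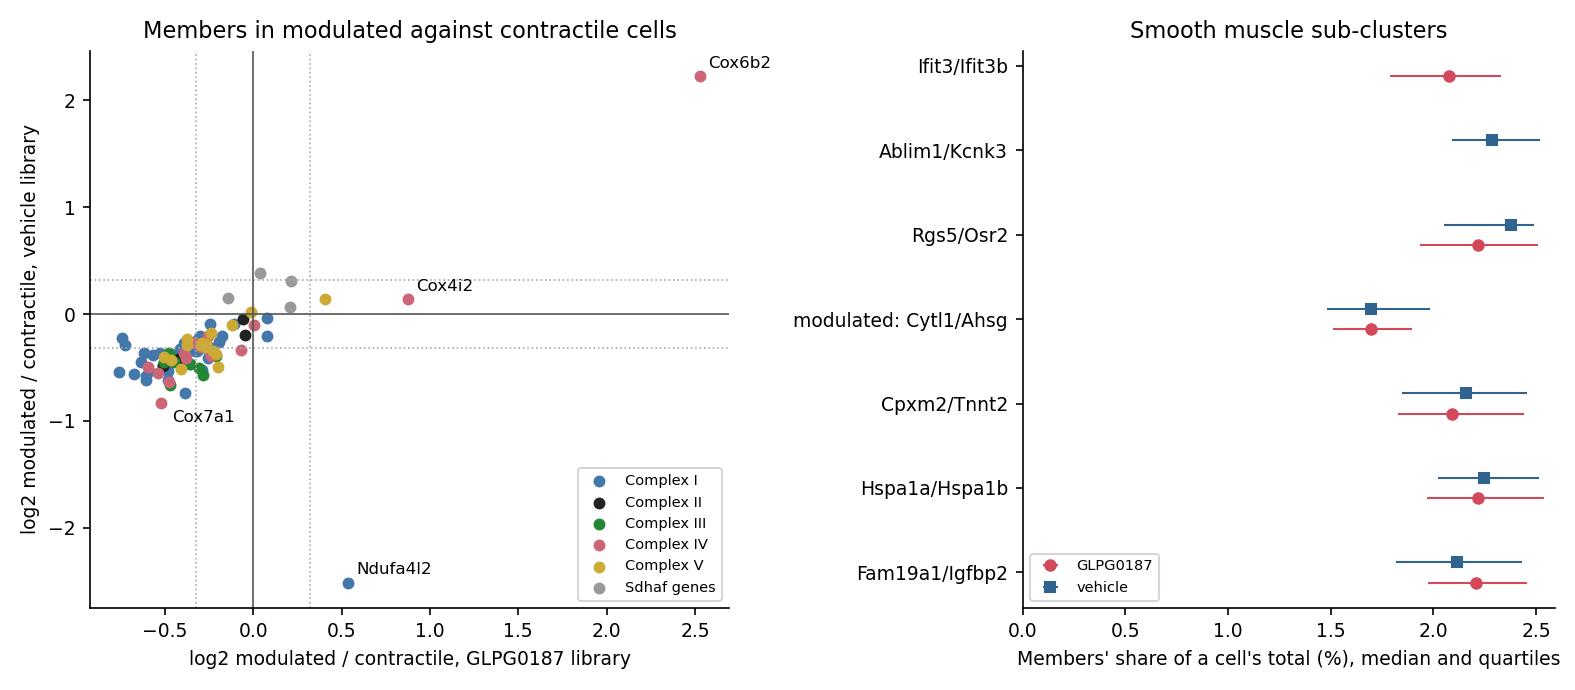
Left, log2 ratio of modulated over contractile SMC-like cells for the 84 measured members in the GLPG0187 library (x axis) and the vehicle library (y axis), coloured by complex, with dotted lines at a log2 ratio of 0.322 in either direction. Right, the members' share of a cell's total (x axis, percent, median and quartiles) in the SMC sub-clusters, where the modulated one has medians of 1.70% in both libraries.

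Of the 38 complex I genes 21 were lower in both libraries (55.3%), with medians of -0.40 and -0.37 and a summed share of 0.605% and 0.620% against 0.798% and 0.807%. By role, 19 of 30 accessory subunits were counted (medians -0.41 and -0.37) and 2 of 7 core subunits (-0.38 and -0.32), Ndufs7 and Ndufs8, which hold iron-sulfur clusters. The accessory subunit Ndufa6 averaged 2.84 and 3.27 units in modulated against 4.85 and 4.77 in contractile SMC-like cells, log2 ratios of -0.76 and -0.54. Ndufb9 averaged 3.38 and 3.64 against 5.43 and 5.37 (-0.67 and -0.56). Ndufv3, a flavoprotein-arm subunit, averaged 1.99 and 2.07 against 3.06 and 3.18 (-0.61 and -0.62), and Ndufb8 1.69 and 1.78 against 2.60 and 2.66 (-0.60 and -0.58). In these 4 genes both libraries' modulated values lay below both contractile values. They were named for their low ratios, so this order was largely set by that choice, and Ndufa5 and Cox6c showed it too. Ndufb4 was close to level at 0.08 and -0.04.

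In complex II the anchor Sdhc (-0.51 and -0.48) and the iron-sulfur subunit Sdhb (-0.43 and -0.42) were counted as lower, while Sdha (-0.04 and -0.20) and Sdhd (-0.06 and -0.05) were not. The assembly factors Sdhaf2 (0.22 and 0.31) and Sdhaf4 (0.04 and 0.38) were among the 5 members with the highest ratios, and Sdhaf1 stood at 0.21 and 0.07. Complex III had 5 of 8 genes lower (62.5%), with medians of -0.40 and -0.46. Its Rieske protein gene Uqcrfs1 averaged 0.922 and 0.855 against 1.30 and 1.36 (-0.47 and -0.66), and Uqcrh averaged 5.65 and 6.12 against 7.91 and 7.90 (-0.47 and -0.37).

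Complex IV had 6 of 14 measured genes lower (42.9%), which were Cox6a1, Cox6c, Cox7c, Cox4i1, Cox7a2 and Cox7a1, with medians over the 14 of -0.31 and -0.35. Cox6c averaged 11.2 and 11.6 in modulated against 17.0 and 16.5 in contractile SMC-like cells (-0.59 and -0.50), and Cox7c 9.95 and 9.83 against 14.5 and 14.4 (-0.54 and -0.55). Cox4i1 averaged 10.97 and 11.04 against 14.4 and 14.7 (-0.38 and -0.41). Cox7a2l, a relative of Cox7a that joins complexes into supercomplexes, was nearly level at 0.00 and -0.10. Cox7a1 (-0.52 and -0.83) had the lowest mean ratio among members with the same sign in both libraries, but it was above 0 in 1 and 4 modulated cells, and its sign changed with a larger pseudocount.

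Complex V had 3 of 16 genes lower, 18.8% and near the 13.5% over all genes: Atp5b (-0.41 and -0.51), the catalytic beta subunit, Atp5c1 (-0.50 and -0.40), the gamma subunit, and Atp5k (-0.46 and -0.43), a membrane subunit. Its medians were -0.27 and -0.29, and its summed share was 0.449% and 0.450% against 0.553% and 0.554%. None of the 3 c-ring genes or the 4 stalk genes was counted. Atp5g1 averaged 3.78 and 3.93 against 4.14 and 4.23 (-0.12 and -0.11), and Atp5o.1 was level (-0.01 and 0.02). The low-level gene Atp5s stood at 0.41 and 0.14, with means of 0.104 and 0.101 against 0.088 and 0.098, where the 1 added to small sums raises the ratio.

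The 6 members above 0 in both libraries were Cox6b2, Cox4i2, Atp5s, Sdhaf1, Sdhaf2 and Sdhaf4. Of the 10760 measured genes, 4035 were above 0 in both. Cox6b2 averaged 0.584 and 0.616 units in modulated and 0.104 and 0.132 in contractile SMC-like cells, log2 ratios of 2.53 and 2.22. Its values came from 23 of 77 and 27 of 138 modulated cells, and macrophage-like cells averaged 0.179 and 0.184. Cox4i2 averaged 0.545 and 0.413 against 0.305 and 0.380, with ratios of 0.88 and 0.14. Ndufa4l2 went opposite ways, 0.104 against 0.081 and 0.029 against 0.205 (0.54 and -2.51), and rested on 3 positive modulated cells in each library. These genes and Cox7a1 were also among the variable genes used to sub-cluster the SMCs. Cox6b2, Cox4i2, Atp5s, Cox7a1 and Ndufa4l2 were then left out by name and not by a cutoff on level. Over the other 79 measured members the mean ratio of both libraries ran from -0.65 to 0.26, and 73 were below 0. The genes left out held the highest and lowest mean ratios (2.38, 0.51, 0.27, -0.68 and -0.99), so the narrower range follows from that choice. Across the 84 members the ratios of the 2 libraries correlated with Pearson's r of 0.60 and Spearman's rho of 0.65 (0.76 and 0.65 over all measured genes), a description over genes that share cells and a library.

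Markers of other cell types also differed between modulated and contractile cells. The 10 fibroblast markers summed to 105 and 60.0 units per modulated cell, against 36.2 and 35.1 per contractile SMC-like cell and 505 and 511 per fibroblast-like cell. Of the 10, 5 were higher in modulated cells in both libraries (Pdgfra, Dcn, Lum, Col1a1 and Gsn) and none was at 0. Dcn and Lum were also among the markers used to call the modulated class, so their excess was partly set by that rule. Dcn averaged 40.8 and 16.6 units against 5.54 and 5.88, and Lum 11.6 and 7.13 against 1.77 and 2.16, a large part of the summed difference. Col3a1 was lower in both (15.7 and 12.8 against 16.1 and 13.8), and Dpt and Serpinf1 were higher in the GLPG0187 and lower in the vehicle library. Pi16 averaged 0.026 and 0.051 in modulated against 0.052 and 0.023 in contractile SMC-like cells, and Clec3b 0.013 and 0.043 against 0.054 and 0.056. Ndufa4l2, which most fibroblast-like cells held, was in 3.90% and 2.17% of modulated cells. The 6 chondrocyte or valve markers summed to 7.68 and 5.13 units against 1.44 and 2.30, with 2 and 1 of them at 0 in modulated cells. The 7 endothelial markers summed to 0.883 and 0.594 against 0.161 and 0.166, with 5 and 3 at 0. The 8 macrophage markers were close, at 0.403 and 0.471 against 0.448 and 0.538. Lower in modulated cells were the 6 cardiomyocyte markers, at 0.623 and 0.674 against 1.30 and 1.97, with 4 and 3 at 0. The 4 pericyte markers were also lower, at 5.26 and 4.75 against 6.33 and 6.97. The part of these transcripts in the lower share was not tested.

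Other mitochondrial and metabolic gene lists give the setting for this difference, and their counts are to be read against the 13.5% of all genes that were lower and the 17.6% that were higher. The 13 subunits made from the mitochondrial genome had 0 genes counted as lower or higher in both libraries, with medians of -0.09 and -0.23. Of 39 assembly factors 2 were lower (5.13%), Ndufaf3 (-0.58 and -0.44) and the copper chaperone Cox17 (-0.56 and -0.49), with medians of -0.09 and -0.07. Of 13 electron carriers and subunits outside the rule 5 were lower (38.5%), with medians of -0.32 and -0.33: Cyc1, the cytochrome c1 of complex III (-0.59 and -0.42), Usmg5, an ATP synthase membrane subunit (-0.49 and -0.33), Higd1a (-1.06 and -1.17), Chchd2 (-0.58 and -0.61) and Chchd10 (-2.08 and -2.60). The mitochondrial ribosome and import list had 14 of 92 lower, 15.2% and near that of all genes (medians -0.19 and -0.19), and cytosolic ribosomal protein genes, which are also short and abundant, 3 of 83, or 3.61% (-0.09 and -0.08).

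In the citric acid cycle 8 of 18 genes were lower (44.4%) and 1 was higher (5.56%), with medians of -0.30 and -0.38. Citrate synthase Cs stood at -0.42 and -0.55 and the succinyl-CoA ligase subunit Suclg2 at -0.91 and -1.39, while pyruvate carboxylase Pcx, the higher one, stood at 1.93 and 1.18. In glycolysis 10 of 20 were lower (50%) and 2 higher, with medians of -0.57 and -0.36. Gapdh averaged 6.57 and 7.38 against 10.8 and 11.5, and Pkm 2.94 and 3.20 against 5.62 and 5.58. The higher genes were Ldha (0.33 and 0.47), which reduces pyruvate to lactate, and the lactate carrier Slc16a1 (0.97 and 1.04). Of 14 fatty acid oxidation genes 4 (28.6%) were lower (Acadvl, Acadl, Acadm and Fabp3) and Slc25a20 was higher (0.45 and 0.48). Among 17 regulators 0 were lower and 2 higher (11.8%, below the share of all genes). These were Epas1, the hypoxia-inducible factor HIF-2 alpha (4.23 and 3.15 against 1.35 and 1.45, ratios of 1.66 and 1.12), and Ppara (0.052 and 0.080 against 0.042 and 0.049). The count of Ppara rests on the 1 added to its small sums, which also raises the ratios of Pcx and Slc16a1.

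Between the libraries, the members of abundant classes differed little. In the SMC lineage the median log2 ratio of GLPG0187 over vehicle was 0.01 over 84 members, against -0.05 over all genes. No member was higher by a log2 ratio of at least 0.322, where 2.58% of genes were, and 3 were lower by that much, where 10.1% were. These were the low-level isoforms Ndufa4l2 (0.082 and 0.176 units, -1.11), Cox6b2 (0.126 and 0.212, -0.75) and Cox7a1 (0.036 and 0.057, -0.69). The highest ratios were those of Ndufa3, Cox6a1 and Atp5b, each at 0.15. The libraries differ in their share of modulated cells. Over contractile SMC-like cells alone the median was -0.03, with Ndufa4l2 at -1.35, Cox7a1 at -0.78 and Cox6b2 at -0.35. The median over 77 members in modulated SMC-like cells was -0.02, against -0.01 over all genes.

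Few cells lay behind the isoform values. Ndufa4l2 was above 0 in 43 and 30 SMC-lineage cells, and in each library the 5 highest cells held 40.9% and 44.9% of its sum. Without them its ratio was -1.0. The ratio of Cox6b2 without its 5 highest cells in each library was -0.76, and that of Cox7a1 was -0.29, which is inside the limit of 0.322. At a clustering resolution of 1.0, Ndufa4l2 stood at 0.30 in the SMC lineage, so its direction there depends on which cells the class holds.

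In fibroblast-like cells the median was -0.04 over 84 members, against -0.03 over all genes. No member was higher, where 6.98% of genes were, and Cox4i2 (0.219 and 0.317 units, -0.54) and Cox6b2 (0.353 and 0.498, -0.50) were lower, where 7.36% were. Without the 5 highest cells in each library the ratios were -0.49 and -0.44. Ndufa4l2, at home in these cells, was nearly level at -0.10 without its highest cells. Atp5s (0.29), Ndufa12 (0.12) and Ndufc1 (0.11) had the highest ratios, and Sdhaf1 the next lowest (-0.26).

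In the Prss35 cluster the median was -0.04 over 84 members, against -0.05 over all genes. Ndufa4l2 (0.170 and 0.072 units, 1.24) and Cox6b2 (0.126 and 0.099, 0.36) were higher, where 4.64% of genes were. Cox8b (0.138 and 0.197, -0.50) and Sdhaf3 (0.127 and 0.166, -0.37) were lower, where 8.59% were. Ndufa4l2 was above 0 in 71 and 21 of these cells, and its ratio without the 5 highest cells in each library was 2.29. In cells with Xist and no Y-linked gene the ratio of Cox6b2 was -1.01 and that of Ndufa4l2 was 0.29. Cox6a1 followed at 0.10 and Sdhaf1 at -0.25.

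Macrophage-like and endothelial-like cells were fewer and their ratios spread more. In macrophage-like cells the median was 0.04 over 77 members, against -0.01 over all genes. The core complex I subunit Ndufs1 (0.332 and 0.207 units, 0.63) and Ndufa10 (0.938 and 0.704, 0.38) were higher, where 15.2% of genes were, and the complex III core protein Uqcrc2 (0.856 and 1.1, -0.39) was lower, where 13.3% were. Sdhd came next among the higher at 0.321, just inside the limit, and Ndufb4 stood at -0.19. In endothelial-like cells the median was 0.00 over 76 members, against -0.01 over all genes. Sdhaf2 (0.64), Sdhaf4 (0.55), Ndufa9 (0.43) and Ndufv2 (0.39) were higher, where 14.1% of genes were. Ndufs4 (-0.63), Ndufa10 (-0.51) and Ndufs3 (-0.38) were lower, where 13.8% were.

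In the Chad cluster most members shifted slightly in 1 direction, which was also seen in other classes. The Chad median was 0.14 over 80 members, of which 66 were above 0, while the median over 6161 genes was 0.07 and 3788 of them were above 0. Past the limit, 4 members were higher and 2 lower, where 829 and 369 genes were. Below 0 were 67 of 84 members in the Prss35 cluster (6466 of 10316 genes) and 58 of 84 in fibroblast-like cells (5892 of 10216). Contractile SMC-like cells had 60 of 84 below 0 (6581 of 10552). Macrophage-like cells (47 above, 30 below) and endothelial-like cells (38 and 38) were more even. The members' share of the class total was 1.56% with GLPG0187 and 1.43% with vehicle, with medians of 3848 and 3721 genes detected.

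**Figure D4:**
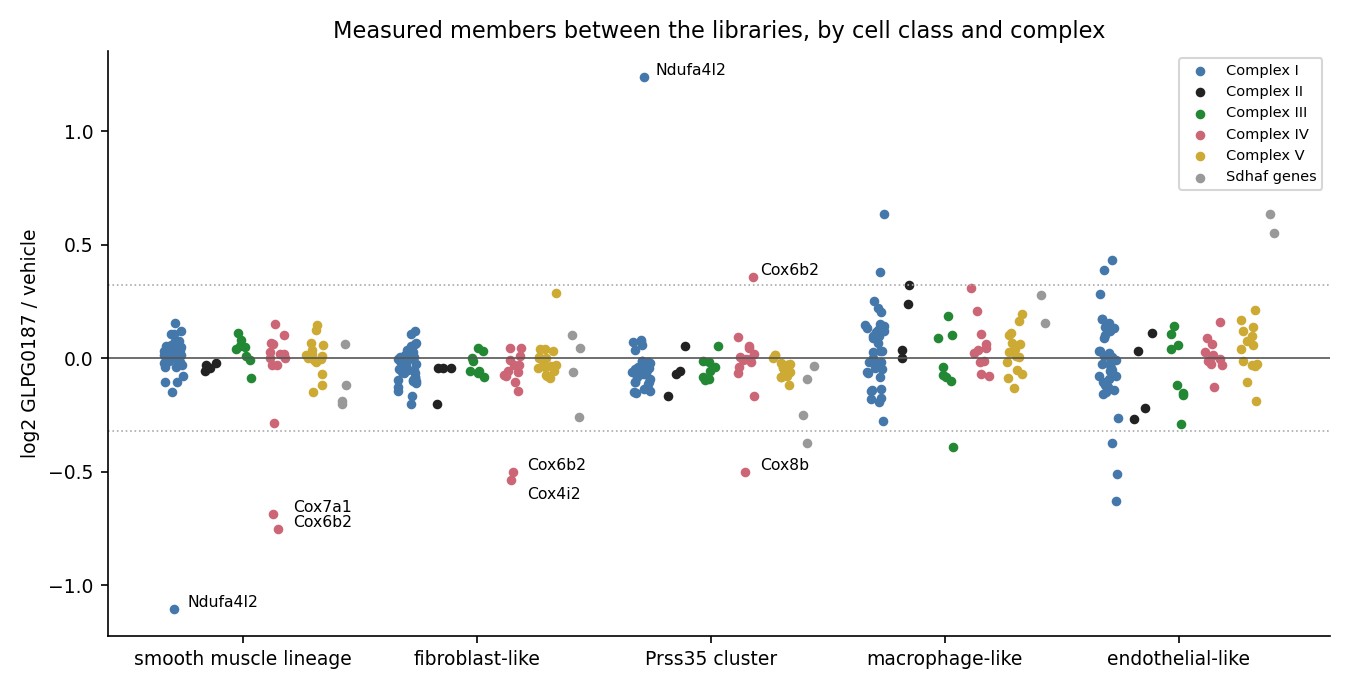
Log2 ratio of GLPG0187 over vehicle (y axis) for the measured members in 5 cell classes (x axis), coloured by complex, with dotted lines at a log2 ratio of 0.322 in either direction and a small random sideways shift. Members past the lines are named for the first 3 classes except Sdhaf3, and Ndufa4l2 lies at -1.11 in the SMC lineage and at 1.24 in the Prss35 cluster.

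Subunits of the same complexes that are made from the mitochondrial genome differed between the libraries in a direction that depended on the class. In the SMC lineage 13 of 13 were above 0, with a median of 0.06, but over contractile SMC-like cells alone 11 of 13 were, with a median of 0.03. Over modulated SMC-like cells 13 of 13 were, with a median of 0.17. In fibroblast-like cells 13 of 13 were below 0 (median -0.13), and in macrophage-like cells likewise (median -0.22), while the medians of the nuclear members there were -0.04 and 0.04. These transcripts come from the same genome within a cell and are not independent of each other. No cell in the 2 libraries gave more than 5.20% and 5.12% of its values to mitochondrial genes, so these comparisons leave out any cells above that. The median contractile SMC-like cell stood at 3.64% and 3.57%.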

How the data were processed

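Single-cell RNA was measured in 2 pooled libraries, 1 per treatment group, grouped by the treatment label or title. The authors deposited 1 table of genes by cells per library, whose values are whole numbers on a depth-corrected scale and are treated here as a score, not as UMI counts, because totals per cell lay between 12078 and 16719. Raw depth is unknown, and no count test and no counting interval was used. The main design had assumed sums of values per class, which was kept. Cell Ranger, Seurat and mm10 are named without versions per the submitters' processing notes. How the correction was made, and how reads shared with pseudogene copies, which many of these genes have, or with overlapping genes were counted, the sources used here do not say. Evened totals mean that RNA content per cell cannot be seen, and a class with a few very abundant genes leaves less of its total for the others.

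Doublets were removed with Scrublet in scanpy 1.11.5 (48 and 16 cells). The 2000 most variable genes were reduced to 30 principal components and cells were joined by 20 neighbours. They were clustered with the Leiden method of igraph 0.11.9 at resolution 0.5, then again within the SMC lineage. A class name needed 75% of its markers, and a modulated sub-cluster 50% of the modulated markers with lower Myh11. Values were summed per class and library and divided by the class total, and 1 was added to each sum before log2 ratios were formed. A gene counted as measured with a sum of at least 100 in the 2 libraries together, and log2 ratios of at least 0.322 in either direction were counted, in both libraries for modulated against contractile cells. No p-value was computed, since cells are not replicates. The lists, members and rules were chosen with earlier results of these data known. Named genes were, per complex, the 2 highest and 2 lowest by mean, all isoforms, the 5 highest and 5 lowest modulated ratios with 1 sign, the 3 highest and 3 lowest library ratios per class, the 5 most and least variable, complex II and the 5 genes most like an isoform. The value of 1 gene that this rule names is not reported here. Members named otherwise, and list genes, were chosen after their values were seen. Promoters came from RefSeq (GRCm38.p6). Alternatives covered clustering, doublets, scaling, pseudocount, minimum sum, fold, genes detected and cells with Xist or Y-linked genes alone. Python 3.11.15, pandas 2.3.3, scipy 1.17.1, igraph 0.11.9, numpy 2.4.6, matplotlib 3.10.9 and scikit-learn 1.9.0 were used, and the code was tested on simulated data.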

Additional observations from a re-analysis of the deposited data

Results flagged for a closer look

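The following members were past a log2 ratio of 0.322 between the libraries in opposite directions in different classes. The differences between classes were not tested, with 1 library per group. How many of all genes did the same was not counted. Ndufa4l2 had a log2 ratio of GLPG0187 over vehicle of 1.24 in the Prss35 cluster and -1.11 in the SMC lineage. Cox6b2 stood at 0.36 in the Prss35 cluster, at -0.75 in the SMC lineage and at -0.50 in fibroblast-like cells. Modulated SMC-like cells averaged 0.584 and 0.616 units of Cox6b2, against 0.104 and 0.132 in contractile ones. They made up 1.77% and 4.69% of the cells of the 2 libraries. Over contractile SMC-like cells alone the ratio of Cox6b2 was smaller in size, as given above. The part of this mix of cells in the lineage ratio was not tested. The sign of Ndufa4l2 in the SMC lineage changed with the clustering resolution. That of Cox6b2 in the Prss35 cluster changed in Xist-only cells, so neither opposition held under every alternative. Ndufa10 stood at 0.38 in macrophage-like cells and at -0.51 in endothelial-like cells. In those classes many genes were past the limit, with 15.2% of all genes higher in macrophage-like and 13.8% lower in endothelial-like cells.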

How the results depend on the processing

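No paired analysis was possible because each group holds 1 library and the result comes from no test. Of the counts of members under the alternatives 108 stayed within 1.5 times and 32 did not, and of the medians and summed ratios 164 stayed within 0.1 and 28 did not. The causes were not tested unless stated. For modulated over contractile cells, genes scaled within each library gave 0 members lower and 2 higher, medians of -0.0798 and -0.15, and summed ratios over fibroblast-like cells of 0.36 and 0.25, with Cox7a1 at 0.24. With doublets kept, 13 were lower, the GLPG0187 median was -0.21 and that summed ratio 0.23. In both settings the modulated class took in a further sub-cluster, as described above. At 1.5-fold 1 was lower, by construction. The number higher was 6 with a pseudocount of 10, which weighs more on the smaller modulated sums and put Cox7a1 at 1.06, 3 in cells from the middle of genes detected, 2 at resolution 1.0 and 2 without the Cpxm2 and Tnnt2 sub-cluster, an alternative chosen after seeing the data.

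Cells from the middle of genes detected gave summed ratios over fibroblast-like cells of 0.60 and 0.60 (contractile), 0.18 and 0.17 (modulated), 0.32 and 0.34 (Prss35), 0.18 and 0.12 (macrophage-like) and -0.12 (Chad, vehicle). Median of ratios gave 0.32 and 0.30 (contractile), -0.000654 and -0.0164 (Prss35), 0.22 and 0.22 (endothelial-like) and 0.27 and 0.27 (macrophage-like). Xist-only cells gave 0.0448 (Chad, GLPG0187) and -0.0842 (modulated, vehicle), and Y-only cells 0.16 (modulated, vehicle) and 0.11 (macrophage-like, vehicle).

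Between the libraries, the share of all genes past the limit was not computed under the alternatives, so the counts below have no background. Xist-only cells gave, as higher and lower, 11 and 2 in macrophage-like and 1 and 10 in endothelial-like cells (median -0.14). They gave 0 higher in the Prss35 cluster and 1 lower in fibroblast-like cells. They reversed Cox6b2 in the Prss35 cluster (-1.01), Uqcrc2 in macrophage-like (0.13) and Ndufs3 in endothelial-like cells (0.11). As few as 26 cells were in a group. Y-only cells gave 1 lower in the Prss35 cluster and 3 lower in macrophage-like cells. At 1.5-fold, higher and lower numbered 1 and 0 in the Prss35 cluster, 1 and 1 in endothelial-like and 1 and 0 in macrophage-like cells, with 0 lower in fibroblast-like cells. Middle cells gave 1 and 1 in the Prss35 cluster and 1 and 3 in macrophage-like cells, and put Sdhaf4 at -0.10 in endothelial-like cells. In the Prss35 cluster 1 was higher with doublets kept, with a pseudocount of 10 and at resolution 1.0. Resolution 1.0 also left 1 lower in the SMC lineage, with Ndufa4l2 at 0.30. A minimum sum of 20 gave 3 lower in macrophage-like cells.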
